A study of Mus musculus with 2 samples.

Results

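The genes described here encode the proteins of the mitochondrial ribosome. They were taken from the deposited expression table as every row whose symbol starts with Mrpl (large subunit) or Mrps (small subunit) followed by a digit. The rule found 78 genes among the 17245 in the table, 49 of them Mrpl and 29 Mrps. RNA was sequenced from mouse pancreatic islets, the endocrine clusters whose insulin-secreting β-cells are the main cell type. The series compared wild-type mice (WT) with cGASβKO mice (KO), in which cGAS, the cytosolic DNA sensor encoded by Cgas, was removed from β-cells according to the labels. Islets of both genotypes were picked by hand after collagenase digestion and kept in culture medium with serum. Age, sex, strain, the allele, the driver of the deletion and the number of mice per library are not in the sources used here. Each genotype had 1 library, so no difference below has a replicate check and no p-value is given.

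The mitochondrial ribosome translates the few proteins encoded in mitochondrial DNA, all of them core subunits of the respiratory chain and the ATP synthase. Its RNAs come from the mitochondrial genome, while all of its proteins are encoded in the nucleus, made in the cytosol and imported. Some of these proteins have counterparts in the bacterial ribosome, and others were acquired in mitochondria. In β-cells, mitochondrial ATP production couples glucose to insulin secretion.

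Cgas was at 0.521 FPKM in the KO-labelled library and 0.205 in the WT library. FPKM divides the fragments or reads of a gene by its length and by the size of the library. The ratio of 2.55 had a 95% interval of 1.35 to 4.98, so the targeted gene was not lower in the KO-labelled library. The smallest whole reads that give both values were 31 and 16. A whole-islet library also holds cells outside the deletion, and the exons deleted are not given. Every direction below therefore refers to the KO-labelled library. The values came out as whole reads with totals of 14537660 (KO) and 19097001 (WT). The smallest whole reads giving both values of a member ran from 24 to 2016 in the KO-labelled library and from 21 to 1105 in WT. The true reads can be a multiple of these. The lowest, those of Mrpl32, belong to a length of 64 nucleotides, against 3013 for its longest GENCODE transcript. Intervals of a ratio are exact (Clopper-Pearson), computed from the smallest whole reads. They cover counting error only, since copies of 1 molecule made by PCR cannot be recognised without molecular identifiers. All 8 β-cell markers examined were expressed, which matches the islet label, but 5 of the 8 were lower in the KO-labelled library. Their log2 ratios, on the scale given below, ran from -1.38 for Nkx6-1 and -1.06 for Slc2a2 over -0.89 for Iapp and -0.46 for Ins2 to 1.06 for Ins1. The libraries also differed in other cell types. The 7 acinar markers summed to 67.4 FPKM (KO) against 1381 (WT). All 6 of them that reached 1 FPKM were lower in the KO-labelled library. In contrast, 6 of 6 endothelial (509 against 216 FPKM), 6 of 6 stromal (104 against 55.8) and 6 of 6 macrophage markers (269 against 115) were higher there, and none of these markers was at 0. Of the alpha-cell markers 1 of 4 was higher in the KO-labelled library. All 3 delta- and PP-cell markers were higher there, as were the 2 of 4 ductal markers that reached 1 FPKM. The part of these differences in the results below was not tested. In bulk RNA, fewer cells of a type and less RNA per cell cannot be told apart.

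All 78 mitochondrial ribosomal protein genes were at or above 1 FPKM in both libraries. Their median level was 20.5 FPKM in the KO-labelled library and 15.7 in WT, and 61 of the 78 lay above the median WT level of the 12428 genes that reached 1 FPKM in 1 library or both. Summed over all members, the level was 2010 FPKM in the KO-labelled library against 1330 in WT, a ratio of 1.51. As a share of all FPKM in the table this was 0.266% against 0.195%. The sums were 1213 against 789 FPKM for the Mrpl genes (ratio 1.54) and 797 against 542 for the Mrps genes (ratio 1.47). Both subunits were thus represented by more signal in the KO-labelled library, by similar factors. Across the 78 genes the order of levels was similar in both libraries (Pearson r = 0.95 on log2(FPKM + 1), across genes, which are not independent replicates).

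**Figure D1:**
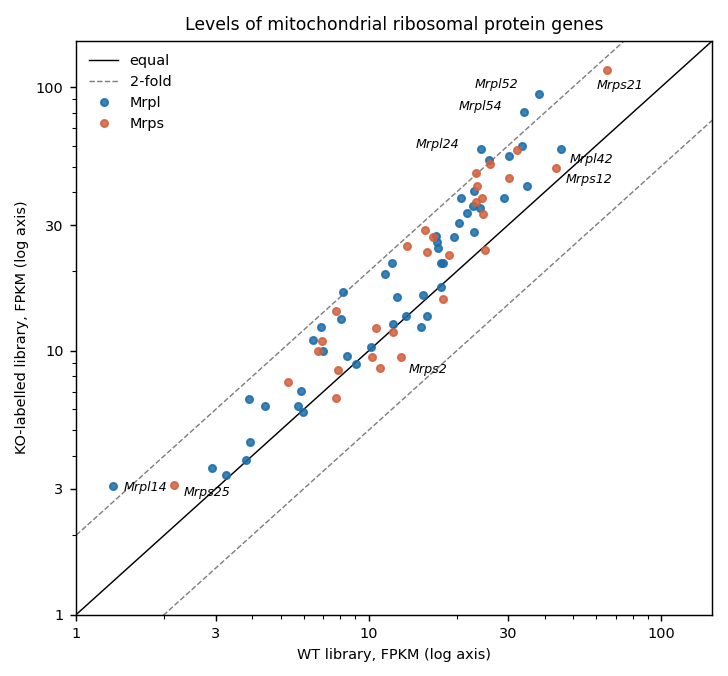
Level of each of the 78 members in FPKM, in the WT library (horizontal, log axis) and in the KO-labelled library (vertical, log axis), with Mrpl genes in blue and Mrps genes in orange. The solid line marks equal levels and the dashed lines a 2-fold difference of FPKM. Most points lie between the solid and the upper dashed line, and none reaches the lower dashed line.

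Differences are given as log2((KO + 1)/(WT + 1)) of FPKM, where the pseudocount of 1 understates the difference of low genes. On this scale 66 of the 78 members were above 0, that is higher in the KO-labelled library, against 54.4% of all expressed genes. The median over members was 0.46 with quartiles of 0.12 and 0.75, beside a median of 0.077 with quartiles of -0.35 and 0.51 over all expressed genes. The difference was broad and modest in size. In 33 members the log2 ratio lay between 0.5 and 1, in 29 between 0 and 0.5, and in 12 between -0.5 and 0. On this scale 4 members, all Mrpl genes, were at least 2-fold higher (5.13%, against 6.98% of all expressed genes). At least 2-fold lower were 0 (against 3.88%). A pseudocount of 0.1 FPKM gave 7 members at least 2-fold higher, beside 12.5% of all expressed genes, with Mrpl14, Mrpl23 and Mrps26 added. With the pseudocount of 1 FPKM, the share past 2-fold was thus near the background, while the share above 0 was larger than it. The range of the members, -0.41 to 1.28, was also narrower than that of all expressed genes (SD over genes 0.39 against 0.64). By counting error alone, the 95% interval of the ratio lay above 1 for 52 members (42.1% of all expressed genes with an interval) and below 1 for 3 members (34.3%). It held 1 for the other 23. Among them were Mrpl32 and Mrpl42, whose smallest whole reads belong to lengths of 64 and 106 nucleotides. Their longest GENCODE transcripts have 3013 and 666, so these intervals may be too wide.

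How many members were higher depended on the scaling of the libraries. With both columns scaled to the same sum, or to the same sum without the 20 highest genes, 58 of 78 members were above 0 and the median of all expressed genes itself moved to -0.039 or -0.059. Of all expressed genes, 48.0% and 46.9% were above 0 under these scalings. A scaling moves members and all genes alike, so the difference of 0.38 between their medians is hardly touched by it and is no evidence of stability.

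**Figure D2:**
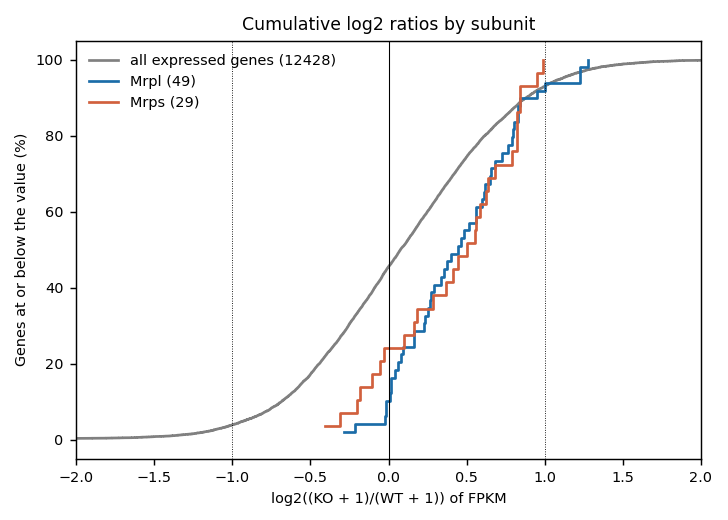
Percentage of genes at or below each log2 ratio (horizontal), for all 12428 expressed genes (grey), 49 Mrpl genes (blue) and 29 Mrps genes (orange). The dotted lines mark 2-fold differences. Both subunit curves lie to the right of the grey curve until shortly below the upper 2-fold line, cross each other several times, and span a narrower range than all genes.

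The large and the small subunit differed little. The median log2 ratio was 0.45 over the 49 Mrpl genes and 0.50 over the 29 Mrps genes, a difference of -0.056 (Mrpl minus Mrps). The means had the opposite order, 0.45 and 0.40, so no order of the subunits is given. Of the Mrpl genes 44 of 49 were above 0, and of the Mrps genes 22 of 29. The interval of the ratio lay above 1 for 32 Mrpl and 20 Mrps genes. The Mrps genes held 15 log2 ratios between 0.5 and 1 but also 7 below 0, while the Mrpl genes held 4 past 2-fold and 5 below 0. Without the pseudocount, the small-subunit gene Mrps26 was past 2-fold as well (ratio 2.03).

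Symbols do not always give the place of a protein, since Mrps18a and Mrps30 belong to the large subunit. Grouped by place, with 5 ribosomal proteins that lack the prefix added and Mrps36 left out, the medians were 0.46 for 52 large-subunit and 0.57 for 30 small-subunit genes. Within the large subunit, 30 members with a bacterial counterpart had a median of 0.41 and 21 mitochondria-specific members one of 0.47. Within the small subunit the same split gave 0.63 over 16 members and 0.24 over 10. Of those 10 mitochondria-specific small-subunit members 6 were above 0, against 14 of the 16 with a bacterial counterpart. With 1 library per genotype, this split has no test.

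**Figure D3:**
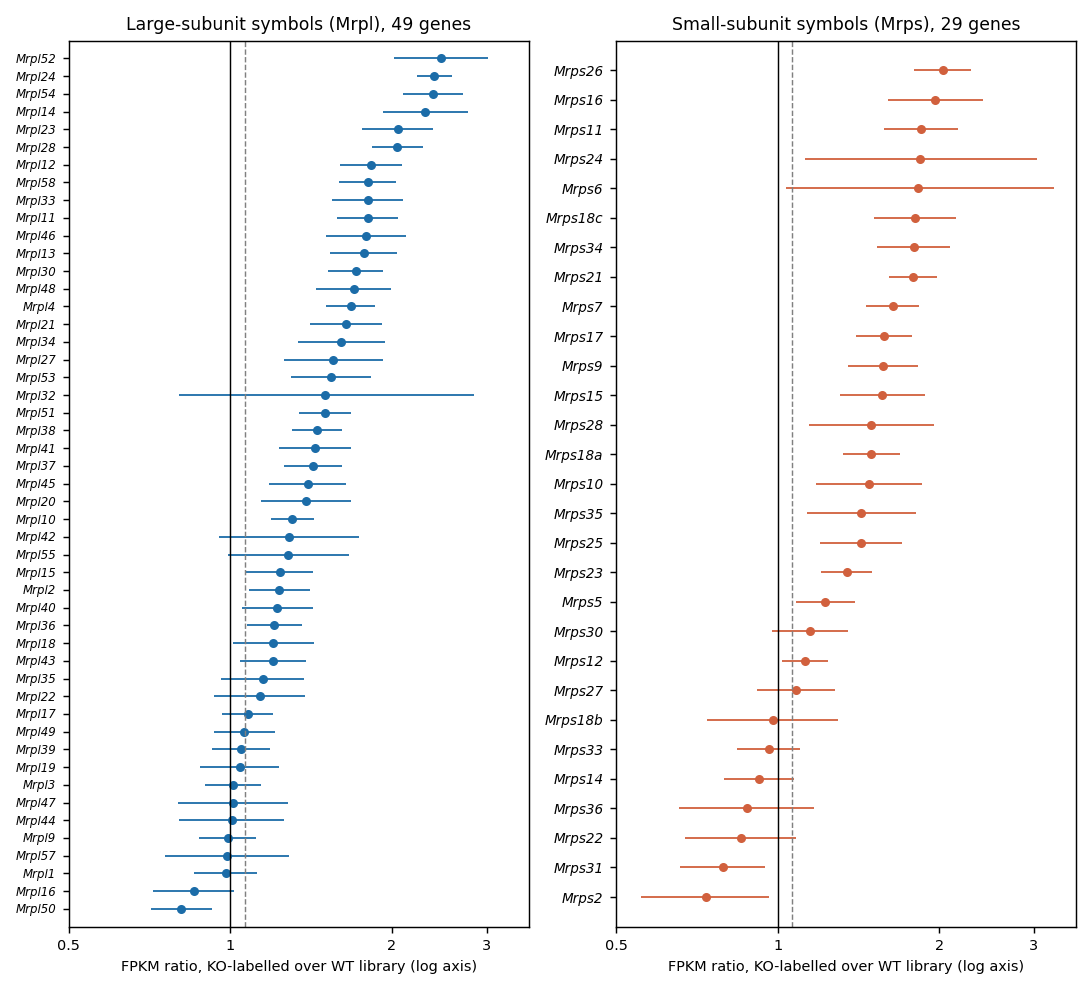
Ratio of FPKM between the KO-labelled library and the WT library (horizontal, log axis) for each Mrpl gene (left panel) and Mrps gene (right panel), with its exact 95% interval for counting error. The solid line marks a ratio of 1 and the dashed line the median ratio of all expressed genes, 1.06. Intervals lie above 1 for 52 genes and below 1 for Mrpl50, Mrps31 and Mrps2.

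The 4 members past 2-fold on the log2 scale were Mrpl52, Mrpl54, Mrpl24 and Mrpl28. Mrpl52, a mitochondria-specific protein of the large subunit (chromosome 14, 54426909 to 54429756, plus strand, GENCODE models on GRCm38 here and below), was at 94.5 FPKM in the KO-labelled library and 38.4 in WT. Its log2 ratio of 1.28 was the highest of all members, and the ratio of 2.46 had an interval of 2.01 to 3.02. Mrpl54, also mitochondria-specific (chromosome 10, 81264713 to 81266934, minus strand), was at 80.7 and 33.9 FPKM (log2 ratio 1.23, interval of the ratio 2.10 to 2.71). Mrpl52 and Mrpl54 had the highest Mrpl levels in the KO-labelled library. Mrpl24 lies beside the exit of the peptide tunnel, as its bacterial counterpart does, and was at 58.1 and 24.2 FPKM (log2 ratio 1.23, interval of the ratio 2.23 to 2.58). An exon of Mrpl24 overlaps Rrnad1, another coding gene, so its reads are less certain. Mrpl28, with a bacterial counterpart (chromosome 17, 26123500 to 26126613, plus strand), was at 52.9 and 25.9 FPKM and sat at the limit with a log2 ratio of 1.00. Just below the limit was Mrps26 at 47.1 and 23.2 FPKM (log2 ratio 0.99, ratio without the pseudocount 2.03). Mrps26, a mitochondria-specific small-subunit protein, had the highest ratio of the Mrps genes.

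The next Mrpl genes were Mrpl23, Mrpl12, Mrpl33 and Mrpl58. Mrpl23, a neighbour of Mrpl24 at the tunnel exit, was at 16.8 FPKM in the KO-labelled library and 8.19 in WT. Its log2 ratio was 0.95, and its ratio without the pseudocount 2.05. Mrpl12, a protein of the stalk that recruits translation factors, was at 37.9 and 20.8 FPKM (0.84). Mrpl33 was at 60.1 and 33.4 FPKM (0.83). Mrpl58, a peptidyl-tRNA hydrolase built into the large subunit, was at 54.6 and 30.3 FPKM (0.83). All 4 had ratio intervals that stayed above 1. Other proteins of these sites had smaller ratios. The exit-tunnel proteins Mrpl22 and Mrpl47 had log2 ratios of 0.16 and 0.016. The stalk proteins Mrpl11 and Mrpl10 had log2 ratios of 0.76 and 0.37. Mrpl45, which anchors the ribosome at the inner membrane, was at 6.15 and 4.42 FPKM (0.40).

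Among Mrps genes, Mrps16 followed Mrps26. Mrps16, whose human counterpart is mutated in a mitochondrial translation disorder, was at 51.3 FPKM in the KO-labelled library and 26.1 in WT (log2 ratio 0.95). Mrps11 was at 25.1 and 13.6 FPKM (0.84), Mrps34 at 57.6 and 32.2 (0.82), and Mrps21 at 117 and 65.4 (0.83). Mrps21 was the most abundant member in both libraries. Mrps24 at 28.6 and 15.6 FPKM (0.84) and Mrps6 at 14.1 and 7.72 FPKM (0.79) had wide intervals, with lower bounds of the ratio of 1.12 and 1.04. The smallest whole reads giving these values were 42 and 30 for Mrps24 and 32 and 23 for Mrps6. They belong to lengths of 101 and 156 nucleotides, far below the 995 and 846 of the longest GENCODE transcripts. The true reads of both genes may thus be larger. All intervals use the smallest whole reads that give both values. Where the true reads are a multiple of these, the interval printed is wider than it should be.

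Of the 12 members below 0, the 3 lowest had intervals that did not hold a ratio of 1. Mrps2, the counterpart of a bacterial small-subunit protein (chromosome 2, 28468066 to 28471178, plus strand), was at 9.51 FPKM in the KO-labelled library and 12.9 in WT. It was 1.36-fold lower, with an interval of 1.04 to 1.80 and a log2 ratio of -0.41. Mrps31, mitochondria-specific, was at 8.62 and 10.9 FPKM (-0.31), and Mrpl50, also mitochondria-specific, at 12.3 and 15.1 FPKM (-0.28). For the other 9 members below 0 the interval held 1. Among them were Mrpl16 (log2 ratio -0.21), Mrps22 (-0.20), whose human counterpart is a mitochondrial disease gene, Mrps36 (-0.18) and Mrps14 (-0.11). Mrps33, Mrps18b, Mrpl1, Mrpl57 and Mrpl9 lay between -0.054 and -0.017. Mrpl44, Mrpl3 and Mrpl47 were within 0.016 above 0, and Mrps27, a pentatricopeptide-repeat protein, was at 8.48 and 7.84 FPKM (0.10).

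The low end thus held members of both subunits. Mrps36 now counts as a subunit of the 2-oxoglutarate dehydrogenase complex rather than of the ribosome. It was at 15.8 FPKM in the KO-labelled library and 18.0 in WT.

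The 3 Mrps18 paralogs, each built into the ribosome at its own place, differed from each other. Mrps18c, in the small subunit, was at 42.2 FPKM in the KO-labelled library and 23.5 in WT (log2 ratio 0.82, interval of the ratio 1.51 to 2.15). Mrps18a, in the large subunit, was at 45.1 and 30.2 FPKM (0.56, interval 1.32 to 1.69). Mrps18b, in the small subunit, was at 11.8 and 12.1 FPKM (-0.027, interval 0.739 to 1.30). The intervals of Mrps18b and Mrps18c did not overlap, so their ratios differed by more than counting error. The intervals do not measure the spread between mice. Mrps30, the other Mrps protein of the large subunit, was at 12.2 and 10.6 FPKM (0.18), with an interval that held 1.

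By level, the highest Mrpl genes after Mrpl52 and Mrpl54 were Mrpl42, Mrpl33 and Mrpl58 by the mean of both libraries. Mrpl42 had the highest WT level of the Mrpl genes, 45.4 FPKM, and was at 58.4 in the KO-labelled library. The highest Mrps genes after Mrps21 were Mrps12, Mrps34, Mrps16 and Mrps18a. Mrps12, the counterpart of a bacterial decoding-site protein, was at 49.3 and 43.9 FPKM, a small log2 ratio of 0.16 for so abundant a member. The lowest levels were those of Mrpl14 (3.08 and 1.34 FPKM), Mrps25 (3.09 and 2.16), Mrpl15 (3.61 and 2.92) and Mrpl19 (3.39 and 3.26). Mrps35 (7.59 and 5.30) and Mrps22 (6.62 and 7.75) were the next of the Mrps genes. The level of Mrpl14 depends on its gene length. The shortest length that gave whole reads was 7525 nucleotides, while all GENCODE exons of the gene cover 949. Mrpl4, Mrpl18 and Mrpl41 also had a length more than 1.5 times that of their GENCODE exons. The same reads divided by the GENCODE length would give larger FPKM and the same ratios. Whether the reads of these 4 genes lie within GENCODE exons was not tested, and without reads outside them both values could change. The ratio of Mrpl14 was 2.31 (interval 1.93 to 2.77), above 2-fold without the pseudocount. Exons of Mrpl14 and Mrpl18 also overlap the coding genes Tmem63b and Tcp1, so their reads are less certain.

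Promoter sequence is shown for the highest member with 1 in the RefSeq table (Mrpl52), for the member at the 2-fold limit (Mrpl28), for the lowest member (Mrps2), and for the space between Mrpl46 and Mrps11. The latter 2 genes are transcribed away from each other on chromosome 7, so a large- and a small-subunit gene share a promoter region. Each stretch is RefSeq sequence of GRCm38.p6, plus strand. Those of Mrpl52, Mrpl28 and Mrps2 hold the 120 bases before the RefSeq start. Capitals mark matches, on either strand, to 5 motifs: NRF1 (GCGCATGCG), ETS, the class bound by GABP (CCGGAAG), YY1 (AAGATGG), SP/KLF (GGGCGGG) and the TATA box (TATAAA).
Mrpl52, chr14:54426789-54426908: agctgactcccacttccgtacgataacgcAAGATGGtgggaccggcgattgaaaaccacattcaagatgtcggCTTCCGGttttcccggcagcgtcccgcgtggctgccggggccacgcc
Mrpl28, chr17:26123383-26123502: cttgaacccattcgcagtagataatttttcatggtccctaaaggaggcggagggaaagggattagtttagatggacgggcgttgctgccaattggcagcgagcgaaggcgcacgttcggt
Mrps2, chr2:28467946-28468065: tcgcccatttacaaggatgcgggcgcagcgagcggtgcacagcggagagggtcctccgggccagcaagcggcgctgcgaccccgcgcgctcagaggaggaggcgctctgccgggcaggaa
Mrpl46 and Mrps11, chr7:78783090-78783130: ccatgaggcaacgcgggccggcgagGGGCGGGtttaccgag

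The Mrpl52 stretch held a YY1 match on the plus strand and an ETS match on the minus strand. The 41 bases between Mrpl46 and Mrps11 held an SP/KLF match, and the stretches of Mrpl28 and Mrps2 held no match to these letters. Mrpl46 was at 21.5 FPKM in the KO-labelled library and 12.0 in WT (log2 ratio 0.79), close to the 0.84 of Mrps11. The GENCODE models of the 2 genes overlap, so reads there cannot be assigned to 1 of them without strand.

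RefSeq windows of 300 bases, 250 before and 50 after a start, were at hand for 69 of the 78 members (75 windows). The ETS letters stood in 34.7% of member windows, against 16.8% of the windows of expressed genes and 8.86% of all windows. The YY1 letters stood in 17.3%, against 6.93% and 6.34%. The NRF1 letters stood in 9.33%, against 3.50% and 1.75%. ETS and YY1 letters were therefore more frequent near member starts than near the starts of expressed genes in general, in the windows of either subunit (ETS 31.2% of Mrpl and 40.7% of Mrps windows, YY1 14.6% and 22.2%). NRF1 letters were more frequent in Mrpl windows (12.5%), while 1 of 27 Mrps windows held them (3.70%). The SP/KLF letters (42.7% against 46.1%) and the TATA letters (6.67% against 7.26%) were about as frequent as in expressed genes. Members with ETS letters had a median log2 ratio of 0.56 (26 genes) and members without them 0.37 (43 genes). For NRF1 the medians were 0.091 (7 genes) and 0.48 (62 genes), and for SP/KLF 0.29 (29 genes) and 0.48 (40 genes). They were 0.48 (13 genes) and 0.41 (56 genes) for YY1, and 0.68 (5 genes) and 0.39 (64 genes) for TATA. The medians with a motif thus lay above those without it for ETS, YY1 and TATA and below them for NRF1 and SP/KLF. These shares and medians are descriptions of letters in a window, not of binding.

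Some members have a head-to-head neighbour. In 32 of the 78 members a coding gene on the other strand started within 1000 bases. In 28 of them the neighbour was expressed and was no member. There, 25 members and 21 neighbours were above 0, with medians of 0.33 and 0.34. The log2 ratios of member and neighbour did not follow each other (Pearson r = 0.046, Spearman rho = -0.0049, across 28 pairs of the same 2 libraries). Examples in either direction were Mrpl54 (1.23) beside Apba3 (0.60) and Mrpl49 (0.081) beside Fau (1.22), which were chosen after their values were seen. The members are spread over 17 chromosomes, with at most 11 on 1 of them and 0 on X or Y.

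Transcript length and base composition moved with the ratios. The longest GENCODE transcripts of the members had a median length of 1328 nucleotides, against 3100 over all expressed genes. Their median GC content was 50.01% against 50.48%. Across members the log2 ratio had a Pearson r of -0.31 with log2 length and 0.50 with GC content. By subunit, r with length was -0.46 over Mrpl and -0.071 over Mrps genes, and r with GC content 0.52 and 0.45. Over all 12374 expressed genes with a transcript, r with length and with GC content was -0.36 and 0.40, from the same 2 libraries. The members were divided at 1064 and 1887 nucleotides into 3 classes of 26 genes. The shortest class had a median of 0.62, beside 0.60 for the 845 expressed genes of the same lengths. The middle class had 0.39 beside 0.39 (2026 genes), and the longest class 0.26 beside -0.043 (9503 genes). In their medians, short and middle-length members were therefore like other genes of their class, and the long members lay above theirs. The longest class has no upper limit, so lengths within it were not matched. The classes also rest on the longest GENCODE transcript. For some long members, such as Mrps26 and Mrps16, the shortest length giving whole reads (962 and 327 nucleotides) would fall in the shortest class. Such a shortest length is a lower bound, since the length used can be a multiple of it. Their class depends on which length applies. For the Mrpl genes the 3 medians were 0.60, 0.50 and 0.13, and for the Mrps genes 0.79, 0.037 and 0.41.

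**Figure D4:**
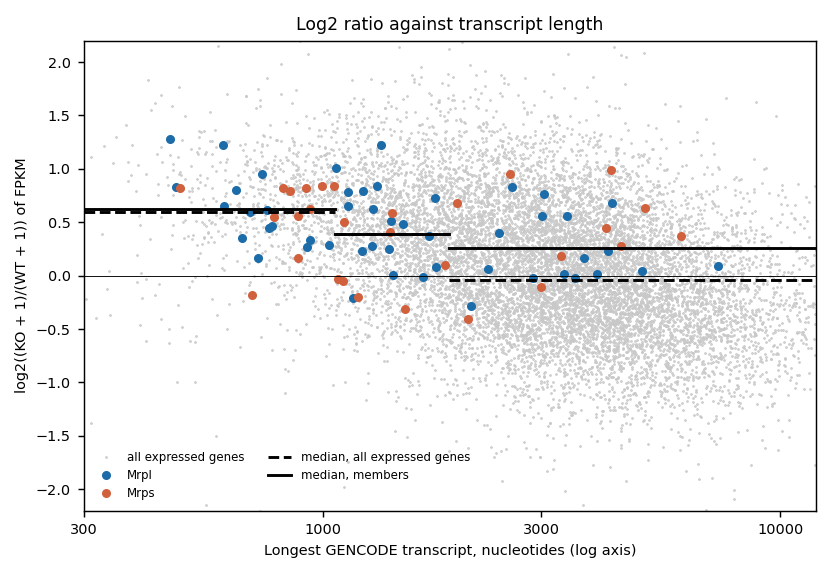
Log2 ratio (vertical) against the length of the longest GENCODE transcript in nucleotides (horizontal, log axis) for expressed genes (grey), Mrpl (blue) and Mrps genes (orange). Horizontal lines give medians of the members (solid) and of all expressed genes (dashed) in 3 length classes. Genes beyond the axes are not drawn but count in the medians. The solid and dashed medians coincide in the 2 shorter classes and differ in the longest (0.26 and -0.043).

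When a smooth trend with GC content and length, fitted over all expressed genes, was subtracted, the median of the members was 0.19, beside 0.062 for all genes. On this adjusted scale 49 of 78 members were above 0, beside 55.0% of all expressed genes, a share not far below that of the members. The Mrpl median was 0.22 and the Mrps median 0.17. The difference between members and all genes was smaller than without the adjustment. The members past 2-fold also differed, and numbered 5 of 78 beside 4.30% of all expressed genes. They were Mrps26 (1.18), Mrps16 (1.09), Mrps17 (1.07), Mrpl24 (1.06) and Mrpl48 (1.03). Of these, Mrpl24 alone was also past 2-fold on the log2 scale before the adjustment, while Mrps26 had a ratio of 2.03 without the pseudocount. The adjusted values of Mrpl52, Mrpl54 and Mrpl28 were 0.36, 0.28 and 0.30. The adjustment used the longest GENCODE transcript, which for 4 of these 5 genes was longer than the shortest length giving whole reads. The lengths were 4278 and 962 nucleotides for Mrps26, 2572 and 327 for Mrps16, 5061 and 1099 for Mrps17, and 4285 and 2217 for Mrpl48. The shorter lengths are lower bounds, as above. The adjusted values of these 4 depend on which length applies.

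As deposited, other genes of mitochondrial translation differed in direction from list to list. Values with the GC and length trend removed (adjusted) are given with each list. On that scale the median was 0.19 for the members and 0.062 for all expressed genes. All 5 ribosomal proteins without the prefix were above 0, with a median log2 ratio of 0.78 as deposited and 0.42 adjusted. Dap3, the GTP-binding protein of the small subunit, was at 21.7 FPKM in the KO-labelled library and 9.40 in WT (1.12). Aurkaip1 was at 0.86, Chchd1 at 0.78, Gadd45gip1 at 0.66 and Ptcd3 at 0.27. The ribosomal proteins outside the symbol rule thus lay on the same side as the members.

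Of 27 expressed genes for ribosome assembly 21 were above 0, with a median of 0.32. Adjusted, 18 were above 0, with a median of 0.14. As deposited, 3 were at least 2-fold higher (11.1%, against 6.98% of all expressed genes). These were Mpv17l2 at 19.7 and 7.93 FPKM (1.21), Mettl17 at 22.7 and 9.39 FPKM (1.19) and Mterf3 at 19.4 and 9.13 FPKM (1.01). The lowest of the list were Gtpbp10 (-0.49), a GTPase of large-subunit assembly, C1qbp (-0.48) and Mettl15 (-0.47), a methyltransferase for the small-subunit RNA. Assembly genes thus covered about the same range as the ribosomal proteins themselves, around a lower median.

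Translation factors were not higher as a group. Of 13 expressed genes 5 were above 0, with a median of -0.057. Adjusted, 5 were above 0, with a median of -0.048. Guf1 (0.82), Mtfmt (0.43), which formylates the initiator methionyl-tRNA, and the initiation factor Mtif2 (0.33) were the highest. Taco1 (-0.67), which is needed for translation of the cytochrome oxidase subunit COX1, the elongation factor Gfm1 (-0.65) and the release factor family member Mtrf1 (-0.32) were the lowest. Gfm1 was at 7.25 FPKM in the KO-labelled library and 11.9 in WT.

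Of 17 mitochondrial aminoacyl-tRNA synthetases 9 were above 0, with a median of 0.31. Adjusted, 13 were above 0, with a median of 0.26, beside 0.19 for the members. Without the adjustment, 2 were at least 2-fold higher on the log2 scale with its pseudocount (11.8%, against 6.98% of all expressed genes). Lars2, for leucine, was at 809 FPKM in the KO-labelled library and 222 in WT (1.86), far above the other synthetases in level, and whether all of these reads come from Lars2 was not tested. Hars2 (1.05) and Vars2 (0.93) followed, and Iars2 (-0.49), Yars2 (-0.32) and Rars2 (-0.27) were the lowest. Of 15 genes for mitochondrial transcription and mRNA stability 8 were above 0, with a median of 0.021. Adjusted, 10 were above 0, with a median of 0.064. Slirp was at 80.9 and 36.5 FPKM (1.13), while its partner in an RNA-binding complex, Lrpprc, was at 11.2 and 18.4 FPKM (-0.67). Mterf1a (0.79) and Hsd17b10 (0.46) were high as well, and the transcription factors Tfam (-0.50) and Tfb2m (-0.31) low. Partners in 1 process thus lay on opposite sides of 0.

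Of 13 genes for mitochondrial mass and biogenesis 6 were above 0, with a median of -0.13. Adjusted, 3 were above 0, with a median of -0.23. Tomm22 (0.46), Hspe1 (0.39) and Esrra (0.34) were the highest, and Gabpa (-0.72), Timm23 (-0.69) and Hspd1 (-0.55) the lowest. Hspe1 and Hspd1 encode the partners of 1 chaperonin. Gabpa encodes the DNA-binding subunit of GABP, an ETS factor, and was at 4.12 FPKM in the KO-labelled library and 7.42 in WT. Of 13 listed genes for mitochondrially encoded proteins, 0 were found by symbol in the expression table, so they could not be analysed.

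Nuclear genes of the respiratory chain and ATP synthase, whose products join those of the mitochondrial ribosome, had a median of 0.55. Of 86 genes 73 were above 0 and 18 at least 2-fold higher. Over all expressed genes these shares were 54.4% and 6.98%. Proteins of the cytosolic ribosome had a median of 0.85, with 82 of 83 genes above 0 and 23 at least 2-fold higher, in a family with many near-identical pseudogene copies that makes its counts less certain. Both families had short transcripts, with median lengths of 861 and 906 nucleotides. With the GC and length trend removed, the medians were 0.094 for the respiratory chain and 0.44 for the cytosolic ribosome. All expressed genes had a median of 0.062 on that scale. The mitochondrial ribosomal proteins, at 0.46 as deposited and 0.19 adjusted, lay below the cytosolic ones on both scales and on no fixed side of the respiratory chain.

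**Figure D5:**
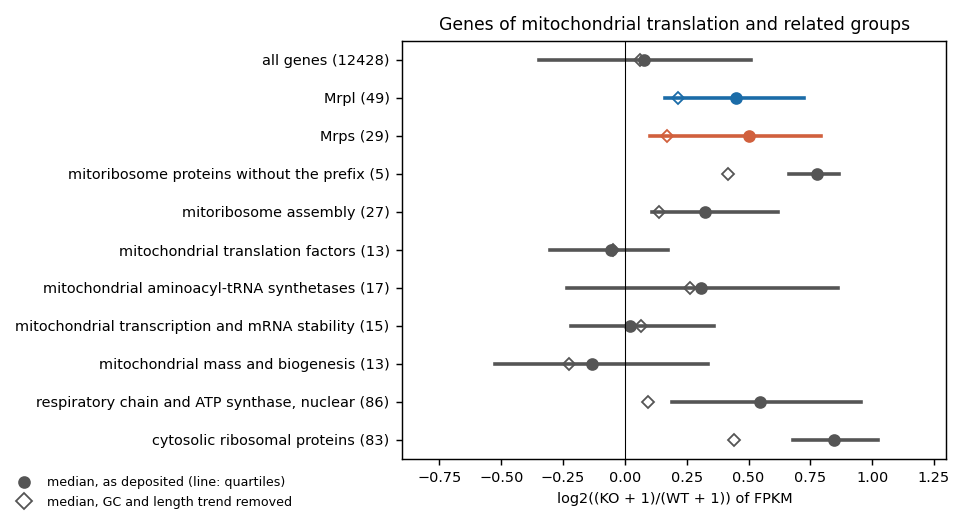
Median log2 ratio of each gene list as deposited (filled circles, with lines from the lower to the upper quartile) and after the GC and length adjustment (open diamonds). The number of expressed genes is in brackets after each list. Mrpl and Mrps genes lie at 0.45 and 0.50 as deposited and 0.22 and 0.17 adjusted, between the lists near 0 (translation factors, transcription and mRNA stability) and the cytosolic ribosomal proteins.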

How the data were processed

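Islet RNA was sequenced as 1 library per genotype, prepared with a SMARTER kit for mRNA (per the labels' protocols). The authors deposited 1 table of FPKM values, and the build was GRCm38 (mm10) per the submitters' processing notes; the aligner, counting tool, annotation and strand setting were not given in the sources used here. Values were used as deposited. Whole reads were searched for over lengths from 60 to 30000 nucleotides; 17178 of 17245 genes (99.6%) and all 78 members fitted whole reads to within 1e-05 plus 1e-09 of the read number. No count test was run, because there is no replicate. A gene counted as expressed at 1 FPKM or more in at least 1 library, and 2-fold differences on the log2 scale with a pseudocount of 1 FPKM were called higher or lower. The trend alternative used lowess (fraction 0.3, 3 iterations) on GC content and then on length of the longest GENCODE M21 transcript. The read search and the calls were tested on simulated data. The rule named all members past 2-fold, the 8 highest and 8 lowest of each subunit, the extremes of level, the Mrps18 paralogs, Mrps30, Mrps36 and the 3 highest and 3 lowest of each list; members named for their role were added afterwards. Members, lists and motifs were chosen with earlier results of these data known, and the pattern for cytosolic ribosomal proteins was corrected after the table was seen. Python 3.11.15, numpy 2.4.6, pandas 2.3.3, scipy 1.17.1, statsmodels 0.14.6 and matplotlib 3.10.9 were used.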

Additional observations from a re-analysis of the deposited data

How the results depend on the processing

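With 1 library per genotype, the spread between mice is unknown and nothing here was tested across samples. No paired analysis was possible because each genotype had 1 library. Medians are given as all members, Mrpl, Mrps. As deposited they were 0.46, 0.45 and 0.50. A pseudocount of 0.1 FPKM gave 0.51 for all members and 7 members at least 2-fold higher, beside 12.5% of all expressed genes; one of 5 FPKM gave 0.35, 0.33 and 0.36. A floor of 5 FPKM, which left 72 members, gave 0.49 for all. Scaling to equal sums gave 0.34, 0.31 and 0.38, scaling to the median ratio 0.38, 0.36 and 0.42, and equal sums without the 20 highest genes 0.32, 0.30 and 0.37. Removing the GC and length trend gave 0.19, 0.22 and 0.17. The mean gave 0.40 for Mrps, grouping by place 0.57, and leaving out members that overlap another coding gene (chosen after seeing the data) 0.43. The Mrpl minus Mrps difference, -0.056 as deposited, turned to 0.044 with the trend removed, 0.046 with means and 0.018 without overlapping members; the cause was not tested. No setting put a member 2-fold lower, and between 3 and 7 members were 2-fold higher, beside 2.45% (pseudocount 5) to 12.5% of all expressed genes. Of 78 members, 52 moved by more than their counting error when the trend was removed.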
